A study of Mus musculus with 204 samples.

Results

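The genes described here encode 8 ion channel proteins that open on membrane stretch or on extracellular acid: Piezo1, Piezo2, Tmem63a, Tmem63b, Tmem63c, Asic1, Asic2 and Asic3. They are 8 of the 49492 gene rows of the series and were picked by name. The series profiles 204 single cells of the mouse distal colon, genotype VGLUT2-tdTomato, in which a red fluorescent protein reports VGLUT2 (the vesicular glutamate transporter encoded by Slc17a6). Muscle layers holding the myenteric plexus were dissociated and kept overnight in culture, and red cells were then drawn up by hand, each into its own tube. All cells share this genotype, tissue and handling; the labels give no treatment, age, animal or culture, and do not say whether the reporter marks present or past VGLUT2 expression. The cells lay on 3 plates of 66, 66 and 72 cells. With each plate taken as 1 sample and no named animals, differences are described by size and by plate without p-values.

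A transcript counts as detected at 10 CPM (reads per 1000000 reads of the cell) or more. Reads per cell ranged from 453052 to 14310732, with a median of 4065094. The labels call every cell a neuron, but 54, 45 and 55 cells on plates 1, 2 and 3 carried the pan-neuronal list (at least 50% of 13 genes such as Elavl4, Stmn2, Uchl1 and Snap25). These are called neuronal cells, and shares of them are given in percent. The other 50 cells, 12, 21 and 17 by plate, had a median of 2.5 of the 13 genes detected against 13 in neuronal cells, and 47 of them carried at least 50% of a marker list of another cell type, smooth muscle (27 cells), fibroblast (16), endothelium (13) and enteric glia (9) most often, then leukocyte (7), epithelium (4), mesothelium (2) and interstitial cell of Cajal (2). Of the neuronal cells, 44 also carried such a list: smooth muscle (28), fibroblast (16), epithelium (15), enteric glia (8), mesothelium (7), endothelium (6), leukocyte (3) and interstitial cell of Cajal (3). The remaining 110 carried none. Whether these 44 were neurons picked with a neighbour, with free RNA or with RNA of their own was not tested.

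PIEZO1 and PIEZO2 are very large trimeric cation channels gated by force in the membrane. PIEZO2 is the main transducer of light touch and proprioception in sensory neurons, and PIEZO1 is best known from endothelium, red blood cells and smooth muscle. The TMEM63 proteins are the animal relatives of the plant OSCA channels and are opened by membrane tension or swelling. Acid-sensing ion channels (ASICs) are trimeric sodium channels of the DEG/ENaC family that open when extracellular protons rise; ASIC1 and ASIC3 form strongly acid-sensitive channels, ASIC2 mainly combines with them and shifts their gating, and ASIC3 is typical of dorsal root ganglion neurons. In the gut, force and acid sensing is attributed to the endings of extrinsic afferents, to enterochromaffin cells and to some enteric neurons.

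Neuronal cells were first compared with the other cells. Tmem63c, Asic1 and Asic2 were higher in neuronal cells, and Piezo1 and Tmem63a were lower, on all 3 plates. Tmem63b, Piezo2 and Asic3 were not called. A gene is called higher in a class where the log2 ratio of its mean CPM + 1 was at least 1 and its share of detecting cells was larger on each plate holding 5 or more cells of both classes, and lower where the reverse held. By this rule 3 of the 8 genes were higher and 2 lower, whereas 15.0% of the 18816 genes with a mean of at least 1 CPM were higher and 3.62% lower. The median log2 ratio, averaged over plates, was 0.97 for the 8 channel genes and 0.43 for all genes tested. Median depth was 4099417 reads in neuronal and 4039815 in other cells, but on plate 3 it was 5586716 against 2004519. With every cell thinned to 453052 reads, the same 5 genes were called.

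**Figure D1:**
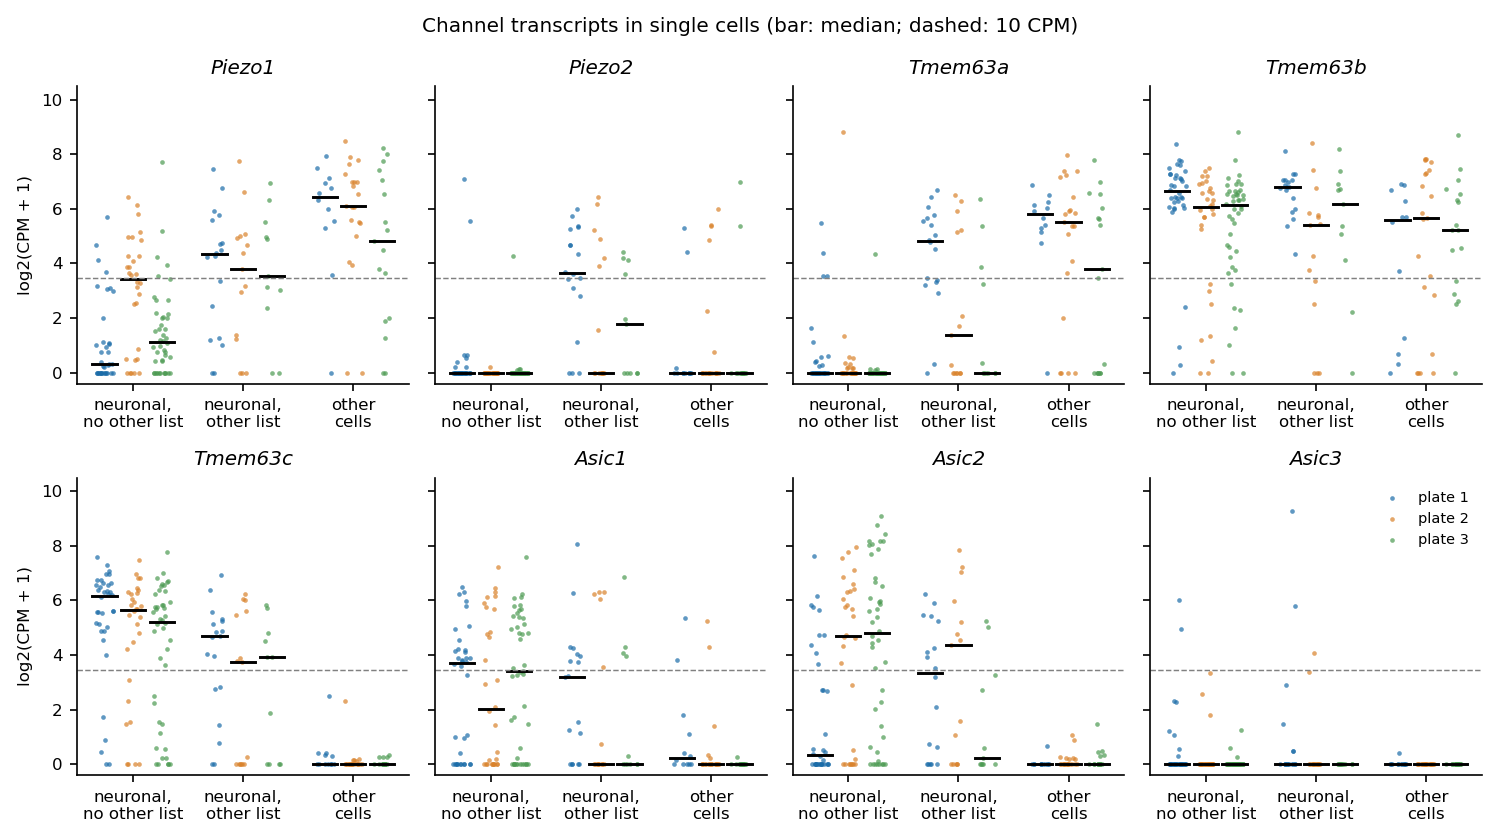
Each point is 1 cell; the y axis is log2(CPM + 1) and the x axis separates neuronal cells without and with a marker list of another cell type and the other cells, coloured by plate, with the plate median as a bar and 10 CPM as a dashed line. Tmem63c, Asic2 and Asic3 lie below the line in all 50 other cells, Piezo1 and Tmem63a lie above it in 42 and 36 of them, and Tmem63b is above it in most cells of all groups.

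Of the genes called in this comparison, Tmem63c, Asic2, Piezo1 and Tmem63a are shown by the start of their transcription units, because these windows differ in base composition. The called Asic1 is not printed. Any relation between base composition and the cell classes was not tested. RefSeq promoter windows (build GRCm38.p6, 250 bases before to 50 after the start, 5′ to 3′ on the gene's strand) matched 7 of the genes with 9 windows. The capitals mark each CG dinucleotide, which is the same on both strands.
Tmem63c, chr12:87021090-87021389, plus strand: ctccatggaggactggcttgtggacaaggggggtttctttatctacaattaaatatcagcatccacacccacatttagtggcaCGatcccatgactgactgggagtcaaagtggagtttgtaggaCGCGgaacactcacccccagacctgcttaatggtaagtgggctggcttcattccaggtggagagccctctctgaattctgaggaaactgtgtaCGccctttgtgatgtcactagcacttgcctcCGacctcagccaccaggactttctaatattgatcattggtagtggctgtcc
Asic2, chr11:81968347-81968646, minus strand: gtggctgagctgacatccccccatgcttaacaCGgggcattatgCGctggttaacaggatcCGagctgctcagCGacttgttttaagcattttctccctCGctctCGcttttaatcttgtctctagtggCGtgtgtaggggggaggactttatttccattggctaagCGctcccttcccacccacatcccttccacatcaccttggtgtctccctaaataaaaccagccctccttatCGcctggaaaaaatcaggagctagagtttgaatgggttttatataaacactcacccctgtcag
Piezo1, chr8:122551280-122551579, minus strand: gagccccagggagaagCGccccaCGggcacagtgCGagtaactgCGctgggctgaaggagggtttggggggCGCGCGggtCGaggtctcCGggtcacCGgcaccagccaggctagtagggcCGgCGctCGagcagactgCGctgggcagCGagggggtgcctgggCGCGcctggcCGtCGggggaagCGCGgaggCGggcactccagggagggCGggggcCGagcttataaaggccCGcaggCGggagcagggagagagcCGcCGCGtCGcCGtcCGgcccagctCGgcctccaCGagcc
Tmem63a, chr1:180942268-180942567, plus strand: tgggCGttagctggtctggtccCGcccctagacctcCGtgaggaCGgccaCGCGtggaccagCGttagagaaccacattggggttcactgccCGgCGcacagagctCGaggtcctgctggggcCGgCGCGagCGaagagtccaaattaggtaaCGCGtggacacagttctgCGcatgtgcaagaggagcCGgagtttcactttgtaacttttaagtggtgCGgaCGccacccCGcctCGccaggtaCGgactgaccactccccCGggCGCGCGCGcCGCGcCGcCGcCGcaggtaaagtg
The Tmem63c window held 5 CG dinucleotides and the Asic2 window 9, against 34 for Piezo1 and 33 for Tmem63a. The median of all 32851 windows of that length was 7, and 93.05% of them had no more CG than the Piezo1 window. The second windows of Tmem63c and Asic2 held 9 and 16, and those of Asic1 and Asic3 held 7 each. The Tmem63b window held 34. The GC box letters GGGCGG, searched on both strands and always containing a CG, occurred in the windows of Piezo1, Tmem63a and Tmem63b and in none of those of Tmem63c, Asic1, Asic2 and Asic3, while 35.7% of all windows held them. These are letter matches and not binding sites.

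Tmem63c, a member of the OSCA/TMEM63 family, had the most even log2 ratios over plates of the 5 genes called. Its gene body is at chr12:87021340-87090043. In neuronal cells it ranged from 0 to 190.3 CPM on plate 1 (median 42.6), from 0 to 176.3 on plate 2 (median 40.8) and from 0 to 216.1 on plate 3 (median 28.1). In other cells the highest value was 4.58, 3.99 and 0.252 CPM on the 3 plates, below every plate's neuronal median. It was detected in 109 neuronal cells (70.8%, exact Clopper-Pearson 95% interval 62.9 to 77.8%, counting error only) and in 0 of 50 other cells. A limit of 3 cells puts that share at up to 6.0%, and the upper bound of its exact interval is 7.11%; both hold for each 0 of 50 given here. Mean CPM was 53.5 against 0.477, 40.8 against 0.212 and 38.4 against 0.0491, giving log2 ratios of 5.21, 5.11 and 5.23. Reads carried over from other wells, at the highest rate estimated on any plate, would amount to at most 1.09 CPM for any of the 8 genes in a cell of median depth. None of the cells with a glial, smooth muscle, fibroblast or endothelial list outside the neuronal set reached 10 CPM, with 9, 27, 16 and 13 such cells.

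Asic2, a subunit that joins other ASICs, was likewise detected in 0 of 50 other cells and in 76 neuronal cells (49.4%, interval 41.2 to 57.5%). Its gene body is at chr11:80880169-81968457. Its level varied more by plate than that of Tmem63c, with shares of 35.2, 60.0 and 54.5% of neuronal cells and plate means of 16.1, 51.0 and 74.5 CPM. The highest neuronal cells reached 198.0, 246.6 and 538.7 CPM, while the highest other cell had 1.79 CPM. The log2 ratios over other cells were 4.03, 5.52 and 6.01.

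Asic1 (gene body at chr15:99670368-99701130), which forms proton-gated channels alone or with ASIC2, was detected in 70 neuronal cells (45.5%, interval 37.4 to 53.7%) and in 4 other cells (8.0%, interval 2.22 to 19.2%). Neuronal plate medians were 11.5, 0.654 and 8.78 CPM, with highest cells of 269.5, 146.4 and 190.4 CPM. The log2 ratios over other cells were 1.88, 2.68 and 4.51, and the groups overlapped. The 4 other cells with Asic1 had 13.0 to 39.5 CPM; they had 3, 3, 3 and 5 of the 13 pan-neuronal genes, 2 carried the endothelial list and 1 the glial list.

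Piezo1 (gene body at chr8:122481698-122551329) showed the reverse order. In other cells it had plate medians of 86.5, 68.2 and 27.3 CPM, with highest values of 243.4, 361.4 and 295.3 CPM. In neuronal cells the plate medians were 1.05, 10.9 and 1.58 CPM, with highest values of 173.5, 215.1 and 211.4 CPM, so that the groups overlapped while their medians differed on every plate. Piezo1 was detected in 42 of 50 other cells (interval 70.9 to 92.8%) and 49 neuronal cells (31.8%, interval 24.6 to 39.8%), and the log2 ratios were -2.70, -2.20 and -2.55. Among the other cells it was found in 9 of 9 with the glial list, 12 of 13 with the endothelial list, 20 of 27 with the smooth muscle list and 11 of 16 with the fibroblast list. Exons of Ctu2 on the opposite strand cover 24.6% of the Piezo1 exon length, and the strand setting of the read counting is not given in the sources used here. Ctu2 itself had log2 ratios of -0.17, -1.05 and -1.08 and was not called.

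Tmem63a (gene body at chr1:180942344-180975112), a further TMEM63 channel, was detected in 36 of 50 other cells (72.0%, interval 57.5 to 83.8%) and in 26 neuronal cells (16.9%, interval 11.3 to 23.8%). Plate medians in other cells were 54.9, 44.8 and 12.8 CPM, and in neuronal cells 0.228, 0 and 0 CPM. The log2 ratios were -2.04, -1.91 and -3.52. The plate 2 value rests partly on 1 neuronal cell with 446.5 CPM, the highest of all cells, and was -2.84 without the highest cell of each class. Tmem63a was found in 8 of 9 other cells with the glial list and 11 of 13 with the endothelial list. With the smooth muscle list it was found in 19 of 27, and with the fibroblast list in 11 of 16. The antisense gene 2210411M09Rik overlaps 3.50% of its exon length.

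Tmem63b, the third TMEM63 channel, was the most widely detected of the 8, in 162 of 204 cells (79.4%, interval 73.2 to 84.7%). Its gene body is at chr17:45660171-45686905, and 2.08% of its exon length is shared with Mrpl14 and 5.65% with the antisense gene Gm16172, both on the opposite strand, so their reads may not be separable. It was found in 83.1% of neuronal cells (interval 76.3 to 88.7%) and 68.0% of other cells (interval 53.3 to 80.5%). Neuronal plate medians were 109.5, 53.3 and 71.2 CPM, against 47.7, 49.8 and 36.5 CPM in other cells. The log2 ratios of means were 1.19, -0.33 and 0.04 on plates 1 to 3, so no direction held over plates. All 9 other cells with the glial list had it, at 49.8 to 225.9 CPM.

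**Figure D2:**
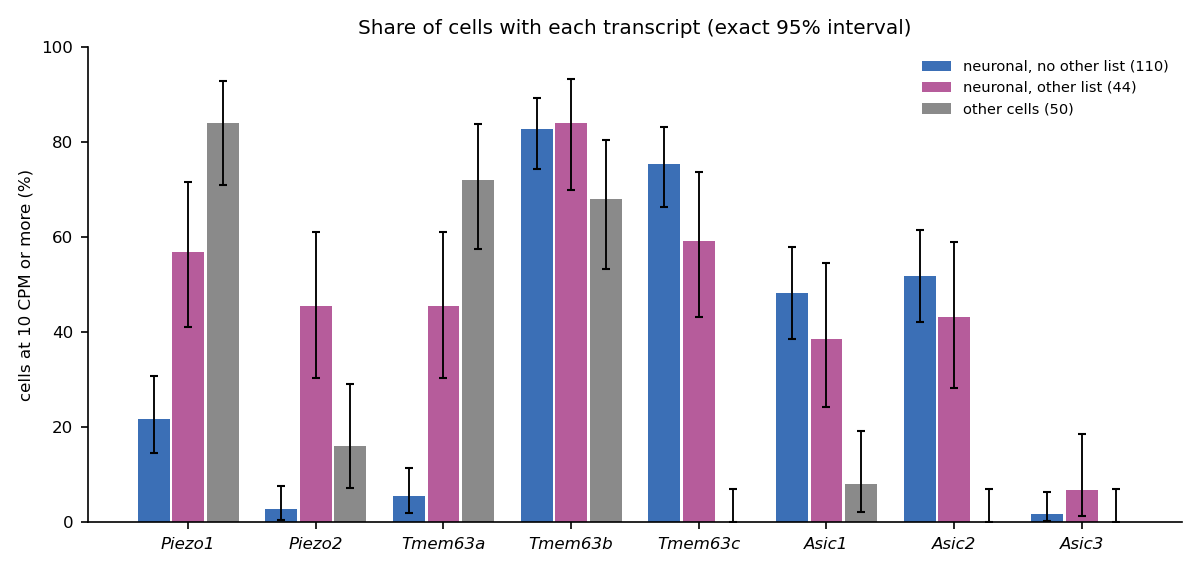
Bars give the percentage of cells at 10 CPM or more for each gene in neuronal cells without a marker list of another type (110), neuronal cells with one (44) and other cells (50), pooled over plates; lines are exact 95% intervals. Piezo1, Piezo2 and Tmem63a bars are lowest in the first group (21.8, 2.73 and 5.45%), while Tmem63c, Asic2 and Asic3 bars are at 0 in the last.

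The neuronal cells that also carried RNA of another cell type were set against those that did not. Piezo2 was called higher in them and Tmem63c lower. For all 18969 genes tested, 2.44% were called higher and 1.06% lower by the rule, and the median log2 ratio was 0.67 for the 8 genes and -0.19 for all. Median depth with and without another list was 4845575 against 3383504, 2161830 against 5030380 and 4925341 against 5620219 reads on plates 1, 2 and 3. Because the marker lists define these groups, the comparison shows which cells held the transcripts and not which cell type made them.

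Piezo2, the touch channel, was detected in 23 neuronal cells (14.9%, interval 9.71 to 21.6%) and 8 of 50 other cells (16.0%, interval 7.17 to 29.1%). Of the 23 neuronal cells, 20 carried a list of another cell type, which is 45.5% of the 44 such cells (interval 30.4 to 61.2%), and 3 were among the 110 without one (2.73%, interval 0.566 to 7.76%). By plate these were 10 of 18 against 2 of 36 cells, 6 of 15 against 0 of 30, and 4 of 11 against 1 of 44. Mean CPM was 19.9 against 5.05, 17.1 against 0.0052 and 6.43 against 0.424, with log2 ratios of 1.79, 4.17 and 2.38. With a pseudocount of 10 CPM the ratios were smaller and the call was lost. Where Piezo2 was detected in neuronal cells, the summed CPM of the 6 fibroblast markers had a median of 156.2 (0 to 1690), with the list carried by 11 of 23 cells, against a median of 0.928 (0 to 2446) and 5 cells with the list among the neuronal cells where it was not detected. The 8 smooth muscle markers summed to medians of 206.1 and 37.5 CPM in the same groups. In the 23 cells, 2 of the 6 fibroblast markers and 1 of the 8 smooth muscle markers had a median of 0. By list, Piezo2 was found in 12 of 28 neuronal cells with the smooth muscle list and 11 of 16 with the fibroblast list. Shares were lower in the other cells with these lists, at 5 of 27 and 4 of 16. With the glial and endothelial lists it was found in 2 of 9 and 2 of 13 other cells. The part of the other RNA of these neuronal cells in the Piezo2 signal was not tested.

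Piezo1 and Tmem63a had the same direction without being called. Piezo1 was detected in 56.8% of neuronal cells with another list and 21.8% of those without, with log2 ratios of 2.74, 0.94 and 1.80. On plate 2 the neuronal cells without another list still had Piezo1 in 15 of 30 cells, at a median of 9.88 CPM, against 4 of 36 on plate 1 and 5 of 44 on plate 3. Tmem63a was found in 45.5% against 5.45%, with log2 ratios of 3.29, 0.42 and 3.29, the plate 2 value again lowered by the 446.5 CPM cell, which carried no other list; without the highest cells it was 3.86 and Tmem63a was called higher. Requiring 75% of the pan-neuronal list, or leaving out plate 2, called both genes higher. Tmem63c was lower in the cells with another list, at 28.4 against 66.0, 22.3 against 50.0 and 17.0 against 43.8 mean CPM (log2 ratios -1.19, -1.13 and -1.32), and this call was lost at thresholds of 5 and 20 CPM, after thinning, where detection also had to exceed 1% of the gene's highest count on the plate, and at a pseudocount of 10 CPM. Asic2 ratios were 0.24, -0.26 and -3.43, and Tmem63b ratios lay between -0.20 and 0.22.

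Asic3, an acid sensor typical of dorsal root ganglion neurons, was the rarest of the 8. Its gene body is at chr5:24413392-24417835. It reached 10 CPM in 5 neuronal cells (3.25%, interval 1.06 to 7.41%) and 0 of 50 other cells. On plate 1 it was found in cells 6, 14, 40 and 43 at 64.0, 29.7, 621.2 and 54.4 CPM, and on plate 2 in cell 26 at 15.8 CPM. On plate 3 the highest cell had 1.39 CPM. Of 7 markers of extrinsic sensory neurons (Isl1, Pou4f1, Trpv1, Scn10a, Avil, Tlx3 and Prrxl1), cell 40 had all 7 and cell 43 had 5, and none of the other cells in the series had more than 3. The remaining Asic3 cells had few of them: 0 in cells 6 and 14 of plate 1 and 1 in cell 26 of plate 2. Cells 14 and 26 had Chat at 199.0 and 131.3 CPM and Nos1 at 105.2 and 88.2 CPM. In cell 40 the sodium channel gene Scn10a was at 401.5 and Avil at 1169 CPM, and in cell 43 at 615.5 and 178.1 CPM. Cell 40 held 5310 reads of Asic3, the highest Asic1 level of any cell (269.5 CPM), Piezo2 at 62.9 CPM and Asic2 at 17.9 CPM, with Slc17a6 at 85.3 and Chat at 0 CPM; it also carried the fibroblast and endothelial lists beside the extrinsic sensory markers. Cell 43 had Asic1 at 14.7, Asic2 at 36.6 and Piezo2 at 9.92 CPM and carried the glial list beside the extrinsic sensory markers. Cell 6, at a depth of 687430 reads, had Piezo2 at 133.8 CPM (92 reads) with Slc17a6 at 55.3 CPM, and none of Asic1 or Asic2.

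The 3 neuronal cells with Piezo2 and no list of another type were cells 6 and 23 of plate 1 and cell 24 of plate 3. Cell 23 had Piezo2 at 45.6 CPM from 26 reads at a depth of 570219 reads, the lowest on its plate. Cell 24 had 18.4 CPM from 187 reads, with both Chat (181.3 CPM) and Nos1 (280.5 CPM). These cells were singled out after their values were seen.

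Levels of different genes were compared per length, as RPKM (reads per kilobase of gene and 1000000 reads), in neuronal cells. The order of mean RPKM was Tmem63b (16.8), Asic2 (11.1), Tmem63c (10.9), Asic1 (5.75), Tmem63a (2.32), Asic3 (2.23), Piezo1 (1.56) and Piezo2 (0.394). Tmem63b ranged over plates from 13.1 to 21.7 RPKM and Tmem63c from 9.40 to 13.1 RPKM. Asic2 spanned 3.78 to 17.5 RPKM, so its place relative to Tmem63c and Asic1 (5.32 to 6.10) changed with the plate. Tmem63a (0.664 to 3.74), Asic3 (0.0158 to 6.03) and Piezo1 (1.26 to 2.17) overlapped one another over plates, and the place of Asic3 comes from cell 40 of plate 1, which held the extrinsic sensory markers. Piezo2 (0.112 to 0.685 RPKM) lay below the lowest plate of Piezo1. RPKM is the deposited unit, whereas the CPM of Piezo2 and Asic1 rests on the smallest gene length that gives whole reads (14566 and 3763 bases, against exon lengths of 17162 and 5740 in GENCODE M21). The next multiple that would also fit exceeds the M21 exon length for both. In other cells the mean RPKM was 14.1 for Tmem63b, 12.5 for Tmem63a and 9.26 for Piezo1, and 0.609 or less for each of the other 5 genes.

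Neuronal cells with Slc17a6 (89 cells) were compared with those without it (65 cells) to ask how the channels relate to the present VGLUT2 transcript. None of the 8 genes was called in either direction, where 1.29% of all 18969 genes tested were higher and 0.627% lower. The median log2 ratio was -0.01 for the 8 genes and 0.10 for all.

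Tmem63b had log2 ratios of 0.44, 0.40 and 0.42 in favour of Slc17a6 neurons and was found in 89.9% against 73.8% of cells. Tmem63c was found in 80.9% against 56.9%, with log2 ratios of 0.63, 0.26 and 1.03. Both were positive on every plate, and all but the last value were below the limit of 1. Asic2 pointed the other way, with log2 ratios of means of -1.34, -1.68 and -2.19. Mean CPM was 12.3 against 32.7 on plate 1 and 22.4 against 73.9 on plate 2. It was not called because on plate 3 it was detected in 15 of 25 Slc17a6 cells and 15 of 30 of the rest, with a higher median in the former (20.9 against 9.61 CPM). At a threshold of 20 CPM, and when plate 3 was left out, Asic2 was called lower in Slc17a6 neurons. The plate 1 ratio rests on 1 cell without Slc17a6 at 198.0 CPM and was -0.37 without the highest cell of each class. Piezo1 ratios were -1.75, -0.99 and -1.52, with detection in 24.7% against 41.5% of cells and equal shares of 20.0% on plate 3. Another type's list was carried by 21 of the 89 Slc17a6 cells and 23 of the 65 without. The imbalance was largest on plate 1, with 11 of 44 against 7 of 10 cells. On plates 2 and 3 it was 5 of 20 against 10 of 25 and 5 of 25 against 6 of 30. The part of such lists in the Piezo1 values was not tested. Asic1 ratios changed sign between plates (1.63, -0.91 and 0.41), and so did those of Tmem63a.

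The myenteric plexus holds excitatory neurons, marked by Chat (choline acetyltransferase), and inhibitory ones, marked by Nos1 (neuronal nitric oxide synthase). Neuronal cells with Chat and not Nos1 (56 cells) were compared with those with Nos1 and not Chat (30 cells), on plates 2 and 3, since plate 1 held only 3 of the latter. Plates 2 and 3 share the P2 ending of the column names, so they may not be independent samples. Asic2 was called lower in the Chat-only cells, that is, higher in the Nos1-only cells, and none was called higher. Over all 18903 genes tested, 5.01% were called higher in Chat-only cells and 3.34% lower. The median log2 ratio was 0.09 for the 7 channel genes tested and 0.04 for all genes.

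**Figure D3:**
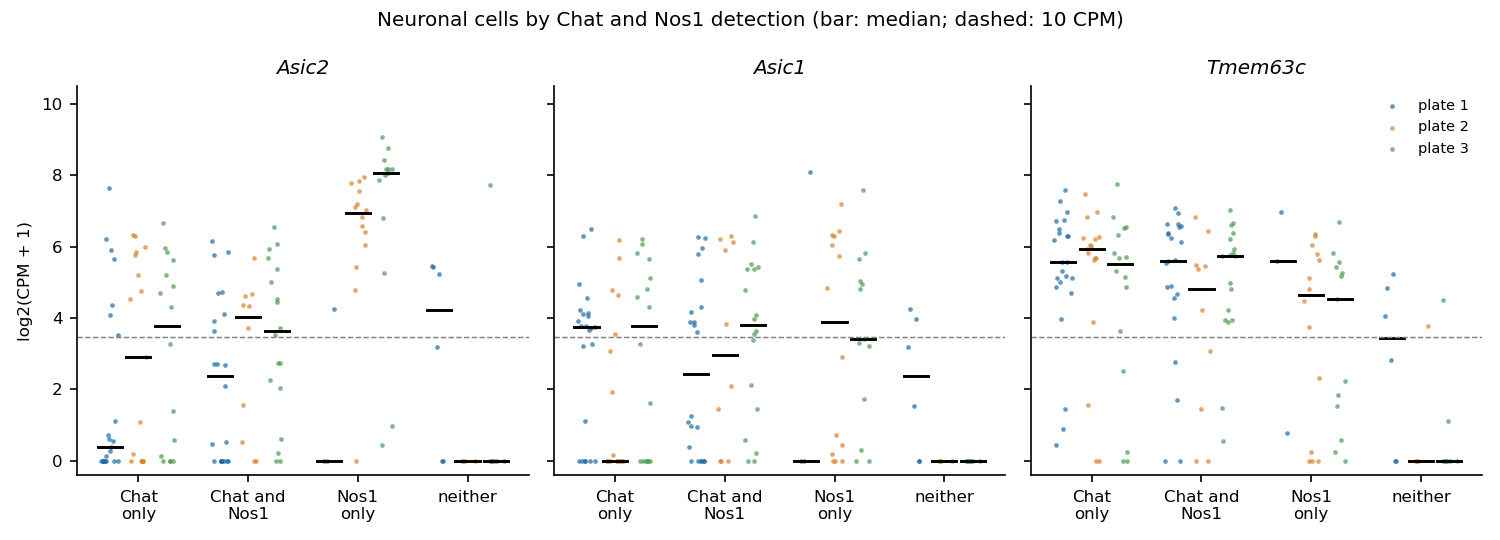
Points are neuronal cells by Chat and Nos1 detection, with log2(CPM + 1) of Asic2, Asic1 and Tmem63c on the y axis, coloured by plate; bars are plate medians and the dashed line is 10 CPM. The Asic2 medians of Nos1-only cells are 121.8 CPM on plate 2 and 264.8 CPM on plate 3, above those of the other classes on these plates, while plate 1 has 3 Nos1-only cells.

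In Nos1-only cells Asic2 ranged from 0 to 246.6 CPM on plate 2 (median 121.8, 14 cells) and from 0.362 to 538.7 CPM on plate 3 (median 264.8, 13 cells). In Chat-only cells it ranged from 0 to 79.7 CPM (median 6.45, 17 cells) and from 0 to 100.5 CPM (median 13.7, 16 cells). The ranges overlap at their low ends, but 8 of 14 and 10 of 13 Nos1-only cells reached 100 CPM, against 0 of 17 and 1 of 16 Chat-only cells. On plate 3 the mean was 236.9 against 24.1 CPM, and the log2 ratios of Chat-only over Nos1-only means were -2.27 and -3.25. Cells with both transcripts resembled the Chat-only cells in level: their medians were 4.35, 15.6 and 11.4 CPM on plates 1, 2 and 3, and 0 of 22, 0 of 10 and 0 of 18 reached 100 CPM. The 3 Nos1-only cells of plate 1 had Asic2 at 0, 17.9 and 0 CPM, the 17.9 CPM cell being cell 40 described above. Their Nos1 was at 66.6, 11.1 and 39.0 CPM, near the threshold, where the Nos1-only class had medians of 683.6 CPM on plate 2 and 1018 CPM on plate 3. Cells with both transcripts had a Nos1 median of 52.5 CPM, and 10 of these 50 lay between 10 and 20 CPM, so that their separation from Chat-only cells depends on the threshold. On plate 1 the highest Asic2 cell, at 198.0 CPM, was Chat-only.

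Slc17a6 and these classes overlap, which bears on both comparisons. Of the 30 Nos1-only cells, 3 had Slc17a6, against 40 of the 56 Chat-only cells and 43 of the 50 with both. Asic2 was detected in 23 of the 27 Nos1-only cells without Slc17a6, at a median of 137.7 CPM. Of the 16 Chat-only cells without Slc17a6, 7 had it, at a median of 5.13 CPM over all 16. Without the cells carrying another type's list, the Asic2 log2 ratios of Chat-only over Nos1-only cells were -2.36 and -3.09. The share of cells with another list was 5 of 17 against 5 of 14 on plate 2 and 3 of 16 against 1 of 13 on plate 3. Median depth was lower in Chat-only cells, at 4204531 against 5673803 and 4986781 against 6885200 reads, and after thinning to equal reads the ratios were -2.31 and -3.21. When any read counted as detection, and so as class membership, the Asic2 call was lost (-0.87 and -4.47). Every cell then counted as neuronal, so these classes were also drawn from the 50 other cells.

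Tmem63c leaned toward the Chat-only cells, with 61.5 against 30.4 and 54.2 against 26.9 mean CPM; its log2 ratios of 1.00 and 0.98 fell just short of the limit of 1 before rounding. It passed the limit without cells carrying another list (1.14 and 1.09), with a pseudocount of 0.1 CPM and without the highest cells. Tmem63b ratios were 1.24 and 0.49. Asic1 ratios were -1.69 and -0.49, with detection in 5 of 17 against 7 of 14 and 8 of 16 against 6 of 13 cells. Piezo1 ratios were 0.34 and -1.69. Without cells carrying another list they were -1.38 and -2.94, and Piezo1 was then called lower in Chat-only cells. On plate 3 Piezo1 was detected in only 3 of 13 Nos1-only cells, with a median of 0.698 and a highest value of 211.4 CPM. That highest cell carried no other list, so both plate 3 values rest on few cells. Asic3 was below the mean of 1 CPM needed to be tested.

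The 18 neuronal cells with neither Chat nor Nos1 had lower shares of Tmem63b, Tmem63c, Asic1 and Asic2 than neuronal cells as a whole. Tmem63c was detected in 5 of 18 (27.8%, interval 9.69 to 53.5%), Asic1 in 2 (11.1%), Asic2 in 4 (22.2%) and Tmem63b in 10 (55.6%). The other 4 genes had higher shares than in all neuronal cells: Piezo1 44.4 against 31.8%, Piezo2 27.8 against 14.9%, Tmem63a 44.4 against 16.9% and Asic3 11.1 against 3.25%. Another cell type's list was carried by 10 of these 18 cells, against 15 of 56 Chat-only, 12 of 50 with both and 7 of 30 Nos1-only cells, and its part in these shares was not tested. No comparison of this class was planned, and it is given as a description.

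Within the 106 Chat neurons, 50 cells with Nos1 were compared with 56 without, and 83 with Slc17a6 with 23 without. Asic3 was too low to be tested, and none of the 7 other genes was called in either comparison. For Nos1, 0.505% of the 18433 genes tested were called higher and 1.04% lower. Asic2 ratios were -0.46, -0.68 and -0.03, and those of Asic1 were 0.11, 1.32 and 0.14, with a median of -0.17 for the 7 genes and -0.01 for all genes. For Slc17a6, on plates 2 and 3, 3.54% of 18510 genes were called higher and 1.86% lower, and the median was -0.39 for the 7 genes and 0.08 for all. Asic2 ratios were -0.99 and 0.20 there, with 8 of 17 against 6 of 10 and 15 of 25 against 3 of 9 cells detecting it. Tmem63c ratios were 0.03 and 0.27, and Tmem63b ratios 0.02 and 0.09. On plate 2 alone Piezo1, Tmem63a and Asic3 passed the limit in the lower direction (-2.19, -1.18 and -1.02), with 6, 2 and 1 detecting cells among the 10 without Slc17a6. Another type's list was carried there by 4 of 17 cells with Slc17a6 and 4 of 10 without. The Asic3 cell, cell 26, carried the smooth muscle list. The part of such lists in these values was not tested.

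**Figure D4:**
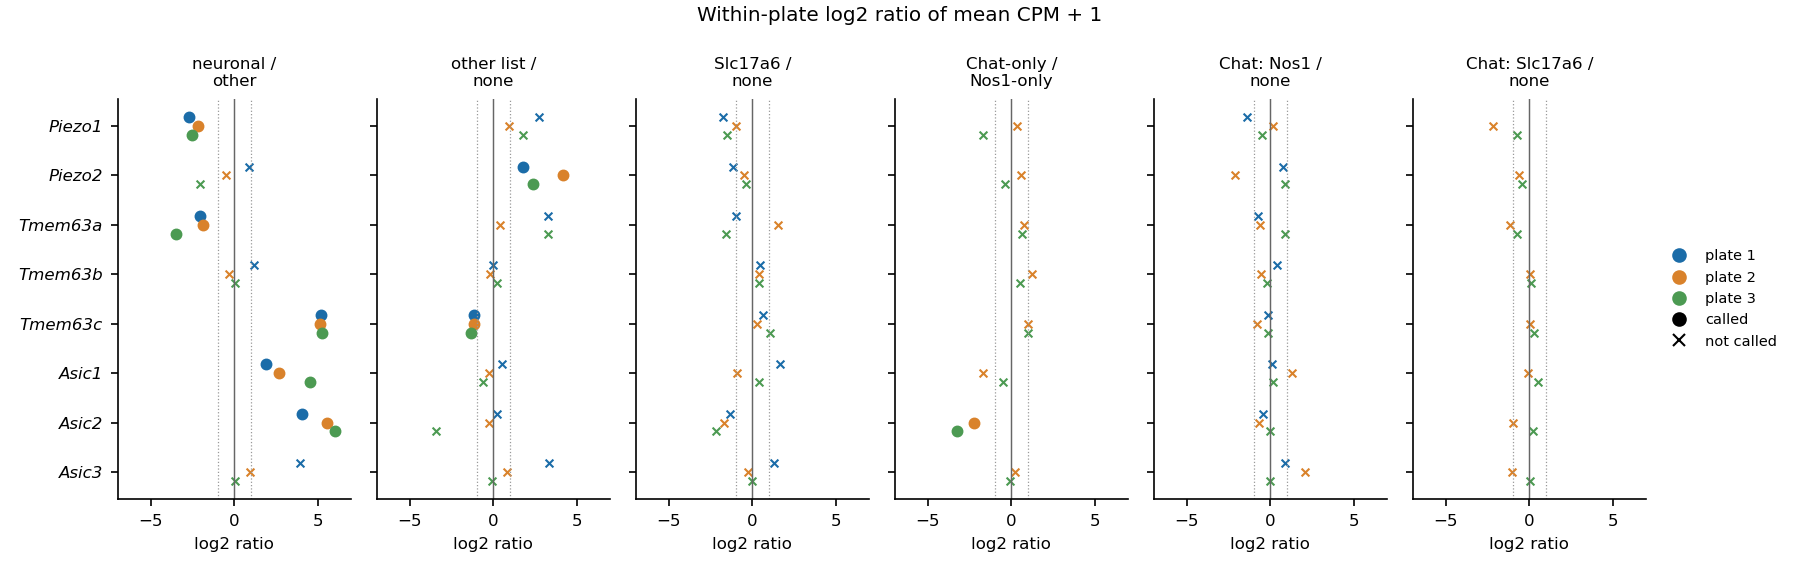
Each panel gives 1 comparison; the x axis is the log2 ratio of mean CPM + 1 of the first class over the second within a plate, the y axis lists the 8 genes, colours are plates, circles are genes called and crosses genes not called, and dotted lines mark ratios of 1 and -1. Called genes are 5 in the neuronal panel, 2 in the panel of cells with and without another type's list, 1 (Asic2) between Chat-only and Nos1-only cells and none in the other 3 panels.

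Single neuronal cells held a median of 3 of the 8 transcripts at 10 CPM. The counts ran from 0 (6 cells) over 1 (13), 2 (28), 3 (43), 4 (40) and 5 (16) to 6 (8 cells), and no cell had 7 or 8. Of the 4 genes common in neurons, Tmem63b, Tmem63c, Asic1 and Asic2, all were present together in 29 cells (18.8%), Tmem63b with Tmem63c and Asic2 in 28, Tmem63b with Tmem63c and Asic1 in 21, and none in 9.

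Pairs were set beside the product of their shares, which is what unrelated detection would give if every cell detected a gene equally readily. Depth differed between cells and shares between plates, and their part in these values was not tested. Tmem63b and Tmem63c were found together in 98 neuronal cells (63.6%, product 58.8%), with plate values of 72.2 against 73.7%, 53.3 against 47.4% and 63.6 against 54.7%. Asic1 and Asic2, whose proteins can assemble, were found together in 37 cells (24.0%, product 22.4%), with plate values of 20.4 against 18.2%, 28.9 against 22.7% and 23.6 against 24.8%. Tmem63c with Asic2 gave 39.6% (product 34.9%) and with Asic1 36.4% (product 32.2%). Piezo2 was found with Tmem63a in 14 cells (9.09%, product 2.52%) and with Piezo1 in 13 (8.44%, product 4.75%). On plate 2 Piezo2 with Piezo1 lay below its product (4.44 against 6.82%), and above it on plates 1 and 3 (13.0 against 6.17% and 7.27 against 1.82%). In the 110 cells without another list the pairs were found in 1 cell (0.909%, product 0.149%) and 0 cells (product 0.595%).

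For the 5 genes found in at least 20% of neuronal cells, the transcripts most like them over all neuronal cells were sought among 10370 genes by Pearson's r of log2(CPM + 1) with plate means removed; points share plates and differ in depth, and r is a description. Piezo1 was most like Mmp14 (r = 0.55), a membrane metalloprotease, Itgav (0.53), an integrin subunit, and Col5a2 (0.53), a fibrillar collagen chain. Over the 110 cells without another list these were 0.235, 0.29 and 0.34. Tmem63c was most like Dnajb5 (0.58), Ccdc92b (0.57) and Rdh14 (0.57), with 0.53, 0.59 and 0.54 over the 110 cells. Tmem63b was most like G6pc3 (0.57), Atp6v0e2 (0.57), a subunit of the vacuolar proton pump, and Snx22 (0.57). Asic2 was most like Rims3 (0.51), a presynaptic active zone protein, Gal (0.50), the neuropeptide galanin, and Rnf144b (0.46), with 0.47, 0.51 and 0.42 over the 110 cells. Asic1 was most like Vps41 (0.48), Rnf157 (0.46) and Dpp6 (0.45), an auxiliary subunit of A-type potassium channels.

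Other genes of the same pathways were followed in 4 lists with 43 genes: other DEG/ENaC channels and ASIC partners, PIEZO partners, other candidate mechanosensitive proteins and other proton sensors. Between neuronal and other cells, 9 of the 35 tested were called higher and 1 lower, with a median log2 ratio of 0.83, where 15.0% of all genes were higher and 3.62% lower, with a median of 0.43. By list these were 4 of 5 higher among DEG/ENaC channels and partners (Asic4, Scnn1a, Stom, Stoml1), 1 higher and 1 lower of 4 PIEZO partners (Tmem150c and Mdfic), 4 of 17 higher among mechanosensitive candidates (Kcnk2, Kcnk10, Trpv2, Trpc6) and 0 of 9 proton sensors.

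Stom, the stomatin that binds ASICs, was found in 79.2% of neuronal and 52.0% of other cells, with log2 ratios of 1.54, 2.73 and 2.44. Its relative Stoml1 was found in 75.3% against 28.0%. Scnn1a, an epithelial sodium channel subunit, and Asic4 were rare, in 16 and 13 neuronal cells. Kcnk2 (TREK-1), a stretch- and acid-modulated potassium channel, was found in 79 neuronal and 0 other cells, with ratios of 5.08, 4.09 and 4.92, and its relative Kcnk10 in 72 and 2. Trpv2 was found in 90.7, 88.9 and 81.8% of neuronal cells by plate and in 14 of 50 other cells (ratios 4.60, 2.41 and 2.29) and Trpc6 in 54 neuronal and 0 other cells. Tmem150c, reported to modulate mechanically gated currents, was found in 66 neuronal cells and 1 other cell. Mdfic, an auxiliary subunit of PIEZO channels, followed Piezo1: it was found in 15 neuronal and 25 of 50 other cells, with ratios of -2.32, -4.91 and -3.69, and was called higher in neuronal cells with another type's list than in those without (3.85, 1.32 and 3.15). Most widely detected in neuronal cells were Atp2a2 (92.9%), Ano6 (90.3%), Trpv2, Stoml2 (83.8%), Lrrc8a (81.8%), Pkd1 (81.2%), Stom and Stoml1.

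The related lists were also followed within neuronal cells. Between cells with and without another list, 2 of 34 were higher (Mdfic and Trpv4) and 2 lower (Kcnk2 and Trpc6), where 2.44 and 1.06% of all genes were. Between Slc17a6 neurons and the rest, 2 of 34 were higher and 0 lower, where 1.29 and 0.627% of all genes were: Kcnk10, with ratios of 2.71, 1.33 and 2.79, and Kcnk1, a weakly conducting potassium channel, with 3.75, 1.48 and 1.37. Between Chat-only and Nos1-only cells, 1 of 32 was higher (Gpr4, a proton-sensing receptor, in few cells) and 1 lower (Tmem150c, ratios -1.62 and -1.49, found in 64.3 and 69.2% of Nos1-only cells against 35.3 and 31.2%), where 5.01 and 3.34% of all genes were. Within Chat neurons, Kcnk10 was higher and Asic4 and Tmc2 lower with Slc17a6 (1 and 2 of 33, where 3.54 and 1.86% of all genes were), and Gpr4 was lower with Nos1 (1 of 34, where 1.04% of all genes were). Asic4, Tmc2, Gpr4 and Trpv4 rest on at most 13 detecting neuronal cells each.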

How the data were processed

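Single-cell polyadenylated RNA was measured in 204 cells. The authors deposited log2(RPKM + 1) values, 1 column per cell; the values themselves show base 2 and an added 1. The submitters' processing notes name mm10. For the aligner, the counter and the use of strand, nothing is stated: not given in the sources used here. Undoing the log and multiplying by gene length (GENCODE M21 exon lengths for 31365 genes, the smallest fitting length for 6270) and by each cell's read total gave whole reads for 100% of 2375655 values. The tolerance was 0.0001 and widened with the count for high counts. For the 6270 genes the length was itself chosen to make the values whole, so wholeness is a weaker check there. The design had assumed counts or CPM, so CPM was computed from these reads. Reads are not unique molecules, and all intervals cover counting error only. Of 6846 cell pairs within plates none matched within sampling noise (lowest chi-square per degree of freedom 5.51). No doublet caller was run. The extrinsic sensory neuron list is given without 1 of its genes, which is not reported here.

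Classes were compared within plates with at least 5 cells of each class by the log2 ratio of mean CPM + 1 (which understates low genes) and the share of cells at 10 CPM, over all genes with a mean of at least 1 CPM; no test was made because the labels name no replicate animals or cultures. Named genes are the 8 channels, Slc17a6, Chat and Nos1, related genes that were called or are among the 8 detected in most neuronal cells, Ctu2 (named after its exon overlap with Piezo1 was seen), and for each channel in at least 20% of neuronal cells the 3 with the highest Pearson's r (no mitochondrial, ribosomal, Rik or Gm genes). The channels, lists and rules were chosen with earlier results of these data known. The comparison rule was tried on simulated data for the Slc17a6 classes only. Changes were planted in genes with a mean of at least 20 CPM, which Piezo1, Piezo2, Tmem63a and Asic3 did not reach in neuronal cells. Alternatives were other thresholds, pseudocounts and filters, thinning to 453052 reads, leaving out plates, and leaving out cells with another type's list. Python 3.11, numpy 2.4.6, scipy 1.17.1 and matplotlib 3.10.9 were used.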

Additional observations from a re-analysis of the deposited data

How the results depend on the processing

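Of the counts of channel genes called, the one between neuronal and other cells was 5 under every alternative that gave a value, and the one between Chat neurons with and without Nos1 was 0. Between Slc17a6 neurons and the rest, 0 genes were called, but 1 at 20 CPM, with any read and with 75% of the pan-neuronal list, and 2 with classes over all cells. Between Chat-only and Nos1-only neurons the count of 1 became 3 without cells carrying another list, 2 with a pseudocount of 0.1 CPM and 2 without the highest cells. Within Chat neurons, by Slc17a6, 0 became 1 with any read and 1 with a pseudocount of 0.1 CPM. Between neurons with and without another list, whose alternatives were chosen after seeing the data, 2 became 4 with 75% of the pan-neuronal list and 0 with a pseudocount of 10 CPM. Leaving out 1 plate in turn gave 0 to 1, 1 to 3, 0 to 3 and 2 to 4 calls in these 4 comparisons, the highest counts coming without plate 3, except the last, which came without plate 2. A call needs every compared plate to pass. In any comparison, leaving out a plate could therefore add calls but, apart from the filter on the mean, remove none. The median of 3 channel genes per neuronal cell was 4.0 at 5 CPM and 4.5 with any read. A lower threshold can only add detected genes in a cell, and it also changes which cells count as neuronal. The causes of the other changes were not tested. No direction of a called gene reversed. With any read as detection every cell counted as neuronal, so the neuronal comparison and that of cells with another list gave no value.

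No paired analysis was possible because a replicate number is the position of a cell on its plate. With 3 plates, and plate 1 short of Nos1-only cells, the spread between animals cannot be had. Shares near 0 move with the threshold: Asic3 was at 10 CPM in 5 neuronal cells and had any read in 22.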
